A study of Homo sapiens with 6 samples.

Results

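The genes described here encode the proteins of small nucleolar ribonucleoproteins (snoRNPs), the particles that a small nucleolar RNA (snoRNA) forms with its protein partners. They were chosen by symbol, with earlier results of these data known. The 10 genes are DKC1, NHP2, NOP10, GAR1, NAF1 and WRAP53 of the H/ACA particles and FBL, NOP56, NOP58 and NHP2L1 of the C/D particles. All 10 were found among the 25277 gene rows of the table, and all 10 reached the mean of 1 FPKM over the libraries that a gene needed to be tested. FPKM are fragments mapped to a gene, scaled by the length of its transcript and by the size of the library.

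The study sequenced RNA of Jeko and Rec-1, established human lines of a B-cell cancer, mantle cell lymphoma. Each line stably carried Cas9 with a tet-on vector, and doxycycline was given to all 6 cultures for 48 h. The Jeko libraries were 1 control with the empty vector, 1 labelled NR4A1 sgRNA 1 and 1 labelled NR4A1 sgRNA 2, and the Rec-1 libraries had the same 3 labels. A single guide RNA (sgRNA) directs Cas9 to cut a matching site, here in NR4A1, the gene of a nuclear receptor. The labels do not say whether a library comes from a clone or a pool, and each library is 1 sample. The p-values within a line and between the lines therefore measure the spread between the libraries of different guides. Over both lines they also take in how far the lines disagree, and those between guides rest on that disagreement.

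In an H/ACA particle the RNA guides a pseudouridine synthase to a uridine of ribosomal or spliceosomal RNA. DKC1 is that synthase, and NHP2, NOP10 and GAR1 complete the core. NAF1 takes the place of GAR1 while the particle is assembled, and WRAP53 brings the RNAs of Cajal bodies to those nuclear bodies. In a C/D particle FBL methylates the ribose of the target nucleotide, NOP56 and NOP58 form its scaffold, and NHP2L1, now named SNU13, binds the RNA first. Most human snoRNAs are cut from introns of other genes, and free snoRNAs that are not bound by core proteins are degraded.

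Several values of the Rec-1 libraries went against their labels. NR4A1 had 5.99, 3.89 and 4.44 FPKM in the Jeko libraries labelled control, sgRNA 1 and sgRNA 2, and 11.6, 27.4 and 12.7 FPKM in the Rec-1 libraries with those labels. It was thus lower under the sgRNA labels in Jeko and higher under them in Rec-1. FPKM do not show whether the gene was cut. Over protein-coding genes the Rec-1 control correlated with the Jeko control at r = 0.988, and at only 0.805 and 0.811 with its own line's libraries under the labels sgRNA 1 and 2. CCND1, the cyclin gene whose expression defines most mantle cell lymphoma, lay between 442 and 815 FPKM in the other 4 libraries and at 0.696 and 0.592 FPKM in those labelled Rec-1 sgRNA 1 and 2. Of 7 markers of other cell types, their sum was 2.07 to 5.10 FPKM in those 4 libraries and 72.3 and 103 FPKM in the Rec-1 libraries with sgRNA labels, where the T-cell gene CD3D gave 66.3 and 95.3 FPKM. HBB was listed at 0 in all 6 libraries and CD14 did not pass 0.0531 FPKM. Without CCND1 the other 7 B-cell markers summed to 591 to 888 FPKM in the other 4 libraries and to 918 and 1035 FPKM in those 2, where CD79A had 520 and 596 FPKM. What part these differences have in the results below was not tested, and in bulk RNA fewer cells of a type and less RNA per cell cannot be told apart. Results are therefore given in Jeko alone as well as over both lines, library names are the labels as deposited, and every Rec-1 direction rests on those labels.

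The members spanned a wide range of levels. By mean FPKM over the 6 libraries, FBL led at 388 ± 60.0 (SD, n = 6), followed by NOP10 at 198 ± 36.5, NHP2 at 172 ± 61.9, NHP2L1 at 155 ± 12.2 and NOP56 at 153 ± 44.2. NOP58 with 94.5 ± 17.7, DKC1 with 92.1 ± 23.2 and GAR1 with 47.2 ± 13.3 FPKM came next. WRAP53 at 18.3 ± 3.88 and NAF1 at 9.31 ± 1.28 FPKM, the proteins that do not stay in the nucleolar particle, were the lowest. FBL was above NOP10, NOP56 above NOP58, DKC1 above GAR1, GAR1 above WRAP53 and WRAP53 above NAF1 in 6 of 6 libraries. NOP10 was above NHP2 in only 4 of 6, and the pairs NHP2 and NHP2L1, NHP2L1 and NOP56, and NOP58 and DKC1 changed places in 3 of 6, so that these neighbours did not differ beyond their spread.

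**Figure D1:**
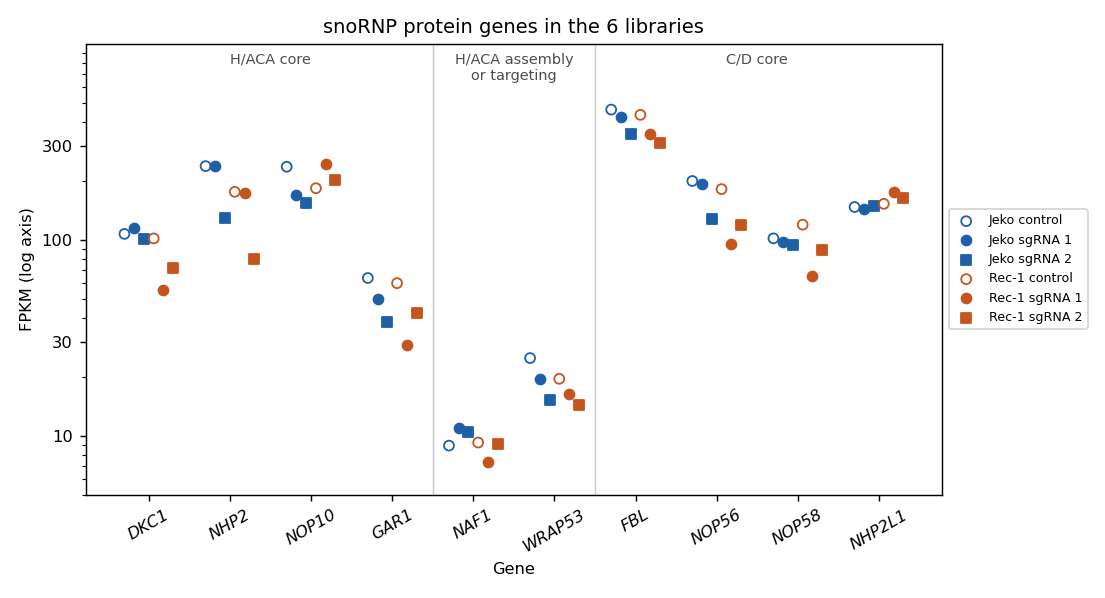
FPKM on a log axis of the 10 snoRNP protein genes in the 6 libraries, with open symbols for the empty-vector controls, circles for sgRNA 1 and filled squares for sgRNA 2, in blue for Jeko and orange for Rec-1. FBL is highest and NAF1 lowest in every library, NHP2 spreads most (2.99 times from lowest to highest) and NHP2L1 least (1.23 times).

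The members also differed in how far they varied. The highest library was 2.99 times the lowest for NHP2, 2.19 times for GAR1, 2.11 times for NOP56 and 2.08 times for DKC1. It was 1.83 times for NOP58, 1.73 times for WRAP53, 1.59 times for NOP10, 1.49 times for NAF1, 1.48 times for FBL and 1.23 times for NHP2L1. On the log2 scale the median range of the 10318 protein-coding genes tested was 1.03. NHP2, with a range of 1.57, stood at percentile 75.1 of those genes, and NHP2L1, with 0.29, at percentile 1.47. NHP2L1 is shared with the spliceosome, where the same protein binds U4 RNA.

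The main question was whether these protein genes differ between the sgRNA libraries and their controls in the way the snoRNAs do. None of the 10 passed the threshold in the comparison over both lines, by limma's moderated test on log2(FPKM + 1) with Benjamini-Hochberg adjustment over 11400 genes, where the percentage of all genes called was 0.246. Their adjusted p-values ran from 0.220 for GAR1 to 0.911 for NAF1. At an unadjusted p under 0.05 there was 1 member, GAR1, beside 2410 genes in all. Of the 10 fitted differences 8 were below 0 and 2 above it, with a median of -0.35 against 0.0079 for all genes tested. The 2 above 0, NAF1 and NHP2L1, came out below 0 when each library was centred on its median. With the sums of protein-coding genes made equal they stayed above 0, at 0.118 and 0.160. The median of the members was then -0.26, and 0 members had an unadjusted p under 0.05 by limma.

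DKC1, the pseudouridine synthase, lies on chromosome X at 153991017-154005964 on the plus strand (GRCh37, as for all positions here). It had 107 FPKM in the Jeko control, 115 in Jeko sgRNA 1 and 101 in Jeko sgRNA 2. In Rec-1 it had 102 FPKM in the control, 55.3 in sgRNA 1 and 71.9 in sgRNA 2. The Jeko libraries and the Rec-1 control lay close together, and both Rec-1 sgRNA libraries lay below them. Over both lines the difference was -0.34 (SE 0.24, 95% interval -0.95 to 0.28, adjusted p = 0.421). Within Rec-1 it was -0.68 (SE 0.27, adjusted p = 0.152), and in Jeko alone it was 0.0094, so that the value over both lines rested on Rec-1.

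NHP2, which binds the H/ACA RNA beside DKC1, lies on chromosome 5 at 177576464-177580895 on the minus strand. It had 238 FPKM in the Jeko control, 238 in Jeko sgRNA 1 and 129 in Jeko sgRNA 2, and 176, 173 and 79.6 FPKM in the Rec-1 control, sgRNA 1 and sgRNA 2. In both lines guide 1 was within a few percent of the control (100% and 98.3% of it) and guide 2 far below (54.2% and 45.3%). Over both lines the difference from control was -0.51 (SE 0.40, 95% interval -1.51 to 0.50, adjusted p = 0.454), and in Jeko alone -0.44 (SE 0.64, adjusted p = 0.807). Between the guides, guide 2 minus guide 1, it was -0.99 (SE 0.21, 95% interval -1.56 to -0.43), which gave an unadjusted p of 0.00734 and an adjusted p of 1 by limma. No member passed that comparison, in which the percentage of all genes called was 0.0175, and NHP2 was the 1 member of 10 at an unadjusted p under 0.05, beside 256 genes in all. Guide 2 lay below guide 1 in both lines for 4 of 10 members (NHP2, NOP10, WRAP53 and FBL), where 26.7 percent of all genes tested did so. NHP2 overlaps RMND5B on the other strand, whose level was 14.5 to 22.5 FPKM. Since the strand of counting is not given in the sources used here, reads of that overlap cannot be told apart.

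NOP10, the smallest core protein, lies on chromosome 15 at 34631360-34635381 on the minus strand. In Jeko it had 236 FPKM in the control, 169 in sgRNA 1 (71.4% of the control) and 154 in sgRNA 2 (65.2%). The Rec-1 values in that order were 183, 244 (133%) and 203 FPKM (111%). Both guides lay below the control in Jeko and both above it in Rec-1. The fitted difference was -0.55 (SE 0.24, adjusted p = 0.469) in Jeko and 0.28 (SE 0.24, adjusted p = 0.442) in Rec-1. The interaction of line and sgRNA was 0.83 (SE 0.33, 95% interval -0.093 to 1.75), with an adjusted p of 0.263 by limma.

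GAR1, which joins the mature particle in place of NAF1, lies on chromosome 4 at 110736666-110745896 on the plus strand. It had 63.8 FPKM in the Jeko control, 49.9 in Jeko sgRNA 1 and 37.9 in Jeko sgRNA 2. In Rec-1 it had 60.1 FPKM in the control, 29.1 in sgRNA 1 and 42.2 in sgRNA 2. The controls were the highest 2 of the 6 libraries, and all 4 sgRNA libraries lay below them, at 48.5% to 78.2% of their own control. The share of all genes with this order was not counted, here or for FBL and PIH1D1 below. The difference of -0.65 (SE 0.24, 95% interval -1.25 to -0.051) was the largest of the 10, with an unadjusted p of 0.0382 and an adjusted p of 0.220 by limma. In Jeko alone it was -0.54 (SE 0.34, adjusted p = 0.566).

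**Figure D2:**
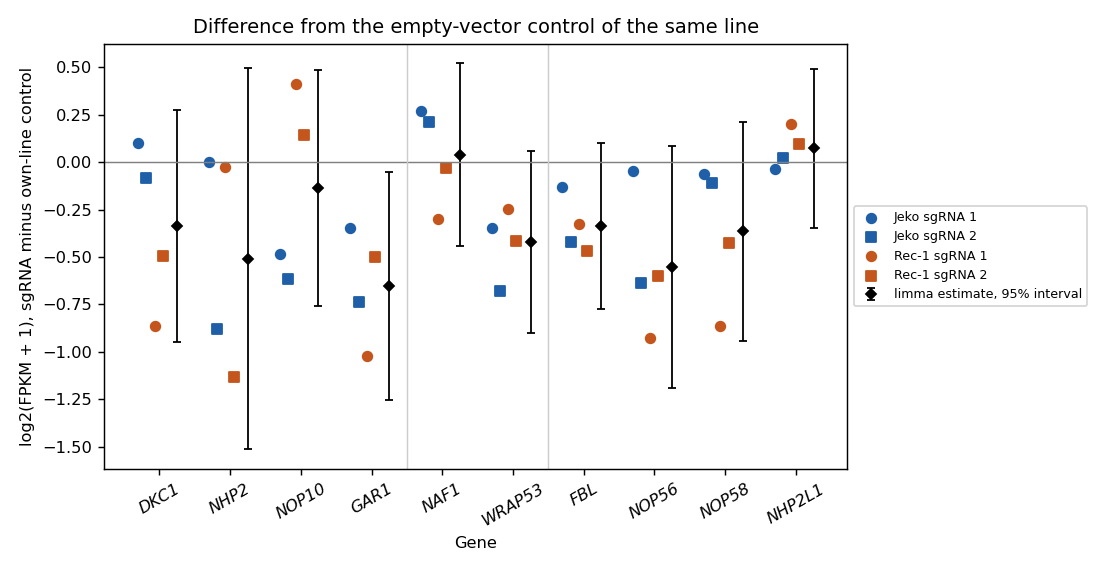
Difference on the log2(FPKM + 1) scale between each sgRNA library and the empty-vector control of its line for the 10 genes, with circles for sgRNA 1 and squares for sgRNA 2 (Jeko blue, Rec-1 orange). Black diamonds are limma estimates over both lines with 95% intervals. GAR1 is the only gene whose interval (-1.25 to -0.051) leaves out 0, and no gene passed after adjustment.

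The assembly and targeting proteins had the lowest levels. NAF1, the assembly factor that keeps the place of GAR1, lies on chromosome 4 at 164031225-164088042 on the minus strand. The symbol has also been used for TNIP1, which has a row of its own here. NAF1 had 8.90, 10.9 and 10.5 FPKM in the Jeko control, sgRNA 1 and sgRNA 2, and 9.22, 7.31 and 9.01 FPKM in the Rec-1 ones. Both guides were above the control in Jeko (123% and 118% of it) and below it in Rec-1 (79.3% and 97.7%). Over both lines the difference was 0.039 (SE 0.19, 95% interval -0.44 to 0.52, adjusted p = 0.911), in Jeko alone it was 0.24 (SE 0.22, adjusted p = 0.682), and the interaction of -0.41 (SE 0.31) had an adjusted p of 0.512 by limma.

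WRAP53, also called TCAB1, lies on chromosome 17 at 7589389-7606820 on the plus strand. It had 24.9 FPKM in the Jeko control, 19.4 in Jeko sgRNA 1 and 15.1 in Jeko sgRNA 2, and 19.5, 16.3 and 14.4 FPKM in the Rec-1 libraries in that order. Each sgRNA library lay below its own control, at 60.8% to 83.4% of it, while Jeko sgRNA 1 and the Rec-1 control nearly coincided. The difference over both lines was -0.42 (SE 0.19, 95% interval -0.90 to 0.058, adjusted p = 0.260), and in Jeko alone -0.51 (SE 0.25, adjusted p = 0.497).

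Of the C/D core, FBL, the methyltransferase fibrillarin, lies on chromosome 19 at 40325098-40337019 on the minus strand. It had 462 FPKM in the Jeko control, 423 in Jeko sgRNA 1 and 345 in Jeko sgRNA 2. In Rec-1 it had 435 FPKM in the control, 347 in sgRNA 1 and 313 in sgRNA 2. The controls were again the highest 2 libraries, and the sgRNA libraries lay at 72.1% to 91.5% of their own control. The difference was -0.34 (SE 0.18, 95% interval -0.77 to 0.10, adjusted p = 0.292), and in Jeko alone -0.27 (SE 0.24, adjusted p = 0.669).

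NOP56, of the C/D scaffold, lies on chromosome 20 at 2633239-2639039 on the plus strand. It had 200 FPKM in the Jeko control, 193 in Jeko sgRNA 1 and 128 in Jeko sgRNA 2, and 182, 94.8 and 119.6 FPKM in the Rec-1 control, sgRNA 1 and sgRNA 2. Jeko sgRNA 1 was close to its control (96.8%), and the other 3 sgRNA libraries lay at 52.2% to 65.9% of theirs. The difference over both lines was -0.55 (SE 0.26, 95% interval -1.19 to 0.084, adjusted p = 0.261), and in Jeko alone -0.34 (SE 0.35, adjusted p = 0.724).

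NOP58, the partner of NOP56, lies on chromosome 2 at 203130459-203168384 on the plus strand. It had 102, 97.4 and 94.1 FPKM in the Jeko libraries and 119, 65.3 and 88.7 FPKM in the Rec-1 libraries, in the order control, sgRNA 1, sgRNA 2. The Jeko libraries differed little (95.8% and 92.5% of the control), and the low values were those of Rec-1 (54.7% and 74.2%). The difference was -0.36 (SE 0.23, 95% interval -0.94 to 0.21, adjusted p = 0.362) over both lines, -0.64 (SE 0.28, adjusted p = 0.175) in Rec-1 and -0.086 (SE 0.28, adjusted p = 0.929) in Jeko.

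NHP2L1, which binds the kink-turn of C/D RNAs and of U4, lies on chromosome 22 at 42069937-42086508 on the minus strand. It had 147, 144 and 149 FPKM in Jeko and 153, 176 and 164 FPKM in Rec-1, in the order control, sgRNA 1, sgRNA 2. The groups overlapped, and the difference over both lines was 0.073 (SE 0.17, 95% interval -0.34 to 0.49, adjusted p = 0.799), an interval that holds changes of either sign. In Jeko alone it was -0.0061 (SE 0.21, adjusted p = 1).

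Counted by direction, 5 of 10 members (GAR1, WRAP53, FBL, NOP56 and NOP58) lay below their own control in all 4 sgRNA libraries, and 21.1 percent of all genes tested did so. None lay above it in all 4, against 21.0 percent of all genes. In 2 of 10 (NOP10 and NAF1) both guides differed in 1 direction in Jeko and in the other in Rec-1, a pattern that 20.7 percent of all genes showed. By role, 1 of 4 H/ACA core genes, 1 of 2 assembly or targeting genes and 3 of 4 C/D core genes were below their control in all 4. No member reached a 2-fold difference in all 4 libraries.

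Length went along with these differences. Transcripts of the members ran from 507 nt for NOP10 and 780 nt for NHP2 to 2469 nt for DKC1. Protein-coding genes were put in 5 bins of equal size by transcript length, and all 10 members fell in the shortest 2 bins, 5 in each. In Jeko the median difference of a bin went from -0.34 in the shortest, up to 1735 nt, over -0.18, 0.017 and 0.19 to 0.36 in the longest, and in Rec-1 from -0.23 to 0.17. The share of genes below their control in all 4 sgRNA libraries was 42.4% in the shortest bin and 32.0% in the next, against 5.62% in the longest. With each library adjusted for a spline on transcript length, the median of the members over both lines was -0.17 in place of -0.35, and 8 of 10 were still below 0. In Jeko that adjustment left 5 members below 0 and 5 above, with a median of 0.030 in place of -0.31, and in Rec-1 it left 7 below 0, with a median of -0.32 in place of -0.49. FBL came to -0.030 over both lines, GAR1 to -0.36, NOP56 to -0.32 and NHP2L1 to 0.38, and none of the 10 passed.

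**Figure D3:**
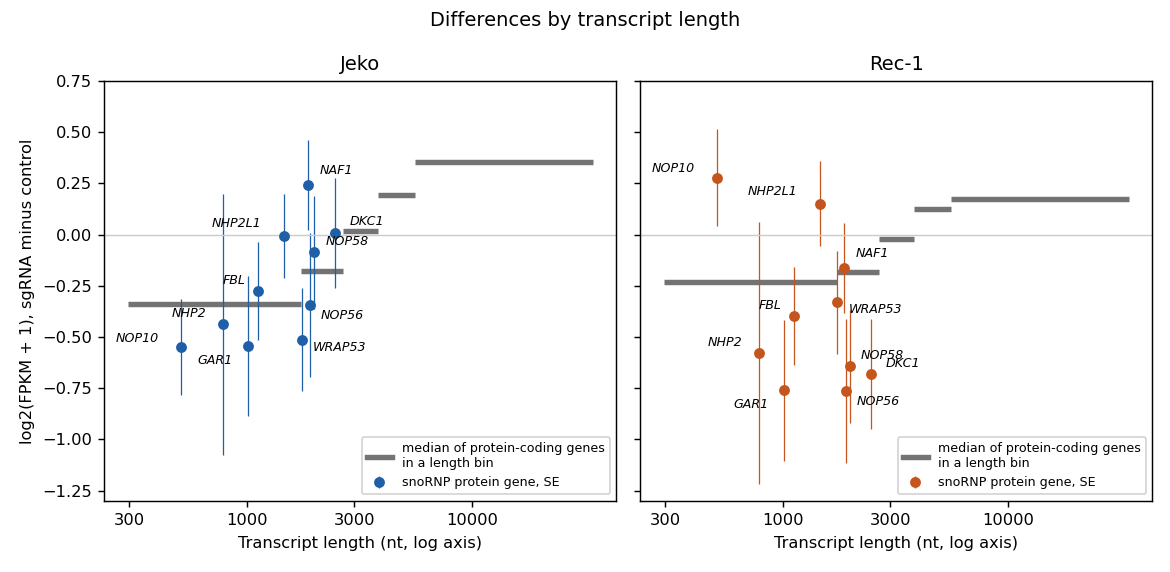
Difference on the log2(FPKM + 1) scale between sgRNA and control libraries of Jeko (left) and Rec-1 (right) against transcript length in nt on a log axis. Points are the 10 snoRNP protein genes with standard errors, and grey bars are medians of protein-coding genes in 5 length bins, which climb from -0.34 to 0.36 in Jeko and from -0.23 to 0.17 in Rec-1. The members sit over the shortest 2 bins.

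In Jeko alone, 0 of 10 members passed by limma, where the percentage of all genes called was 0.439. At an unadjusted p under 0.05 there were 0 members and 1287 genes. The lowest adjusted p was 0.469, for NOP10, and the median of the members was -0.31. In Rec-1 alone, 0 of 10 passed, although 19.2 percent of all genes tested were called there, 1145 higher and 1039 lower. At an unadjusted p under 0.05 there were 0 members and 4401 genes, and the lowest adjusted p was 0.152, for DKC1. Each line has 1 control, so these fits assume that it varies as the pairs of guides do, and only 2 residual degrees of freedom stand behind them.

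The difference between the lines was tested directly. For the interaction of line and sgRNA, 0 of 10 members passed by limma, against 6.94 percent of all genes, with 0 members and 2498 genes at an unadjusted p under 0.05. Among sgRNA libraries only, Rec-1 minus Jeko, 0 of 10 passed where 25.9 percent of all genes did. DKC1 came nearest there, with -0.77 (SE 0.22, 95% interval -1.37 to -0.16) and an adjusted p of 0.0742 by limma. It was the 1 member at an unadjusted p under 0.05, beside 4826 genes. Both Rec-1 sgRNA libraries lay below all 4 other libraries for 3 of 10 members, DKC1, NOP56 and NOP58, and for 29.1 percent of all genes.

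The snoRNAs that these proteins bind showed another pattern. Of 84 H/ACA snoRNAs tested of 105 listed the median difference over both lines was 1.66, with 10 called higher and 0 lower. The 24 RNAs of Cajal bodies, all of those listed, had a median of 1.99, with 4 higher and 0 lower. For 104 C/D snoRNAs tested of 256 listed the median was 1.49, with 4 higher and 3 lower. An RNA at 0 in the controls reached the testing mean only through the sgRNA libraries, which are 4 of the 6. An RNA at 0 in the sgRNA libraries reached it only through the controls. Medians, calls and shares of the H/ACA and C/D classes are thus partly set by that filter and are no independent support. The summed levels given below take all listed rows. Of all genes tested 0.246 percent were called over both lines. In Jeko alone the medians were 1.17, 1.69 and 0, and in Rec-1 they were 2.00, 2.43 and 1.18. Calls in Jeko were 2 higher and 1 lower, 2 and 1, and 6 and 6 in that order, where 0.439 percent of all genes were called. In Rec-1 they were 30 higher and 2 lower, 10 and 0, and 23 and 7, where 19.2 percent were. The H/ACA core proteins had a median of -0.42 over both lines, -0.49 in Jeko and -0.63 in Rec-1, and the C/D core proteins -0.35, -0.18 and -0.52. Above their own control in all 4 sgRNA libraries were 41 of 84 H/ACA snoRNAs, 14 of 24 Cajal body RNAs and 17 of 104 C/D snoRNAs, and 0 of 10 protein genes. Among all genes tested 21.0 percent were, and the C/D share of 16.3 percent was below that.

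Summed levels show the same contrast. H/ACA snoRNAs summed to 1704 FPKM in the Jeko control and 11952 and 6292 FPKM in Jeko sgRNA 1 and 2, and to 1973, 16836 and 22605 FPKM in Rec-1. Each sgRNA library was above both controls. Cajal body RNAs summed to 151, 835 and 563 FPKM in Jeko and 138, 1039 and 1495 FPKM in Rec-1, with the same separation. C/D snoRNAs overlapped between the groups, with 28539, 31691 and 20209 FPKM in Jeko and 28543, 38634 and 35848 FPKM in Rec-1. The 10 protein genes summed to 1590, 1459 and 1164 FPKM in Jeko and 1438, 1208 and 1105 FPKM in Rec-1. Here each sgRNA library lay below the control of its own line, while Jeko sgRNA 1 was slightly above the Rec-1 control.

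**Figure D4:**
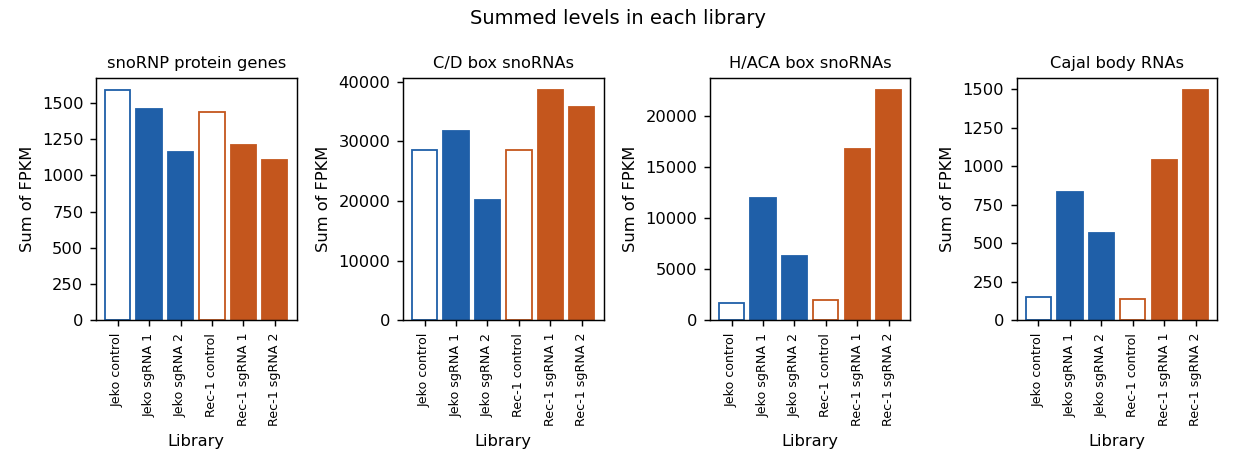
Sum of FPKM in each of the 6 libraries for the 10 snoRNP protein genes and for the C/D box, H/ACA box and Cajal body RNAs, each panel with its own axis from 0. Open bars are empty-vector controls. Summed H/ACA snoRNAs stand at 1704 and 1973 FPKM in the controls and 6292 to 22605 FPKM in the sgRNA libraries, while the protein genes stay between 1105 and 1590 FPKM.

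Single RNAs make the difference in size plain. SNORA43 had 3.43 FPKM in the Jeko control, 829 in Jeko sgRNA 1 and 527 in Jeko sgRNA 2, and 17.2, 2160 and 2393 FPKM in Rec-1 (7.09, SE 0.24, adjusted p = 0.000751 by limma). SNORA48 rose by 4.81 (SE 0.27, adjusted p = 0.00526) and SNORA63 by 5.50 (SE 0.39, adjusted p = 0.0150), from 66.8 and 82.8 FPKM in the controls to between 1598 and 6366 FPKM. SCARNA10 rose by 5.52 (SE 0.29, adjusted p = 0.00441), and SCARNA16, named after its values were seen, by 2.22 (SE 0.21, adjusted p = 0.0305). SCARNA1 and SCARNA5 were listed at 0 in both controls and at 86.5 to 294 and 31.3 to 117 FPKM in the sgRNA libraries. Both reached the mean needed for testing only through the latter. Among C/D RNAs SNORD15B rose by 6.78 (SE 0.31, adjusted p = 0.00265). In the controls SNORD42B had 185 to 204 and SNORD100 had 88.8 to 161 FPKM, and each sgRNA library lists both at 0. SNORD42B and SNORD100 thus reached the mean needed for testing only through the controls. The calls for SNORA48, SNORA63, SCARNA1, SCARNA10 and SCARNA5 were each lost in at least 1 alternative fit, with adjusted p-values of up to 0.130 for SNORA63.

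**Figure D5:**
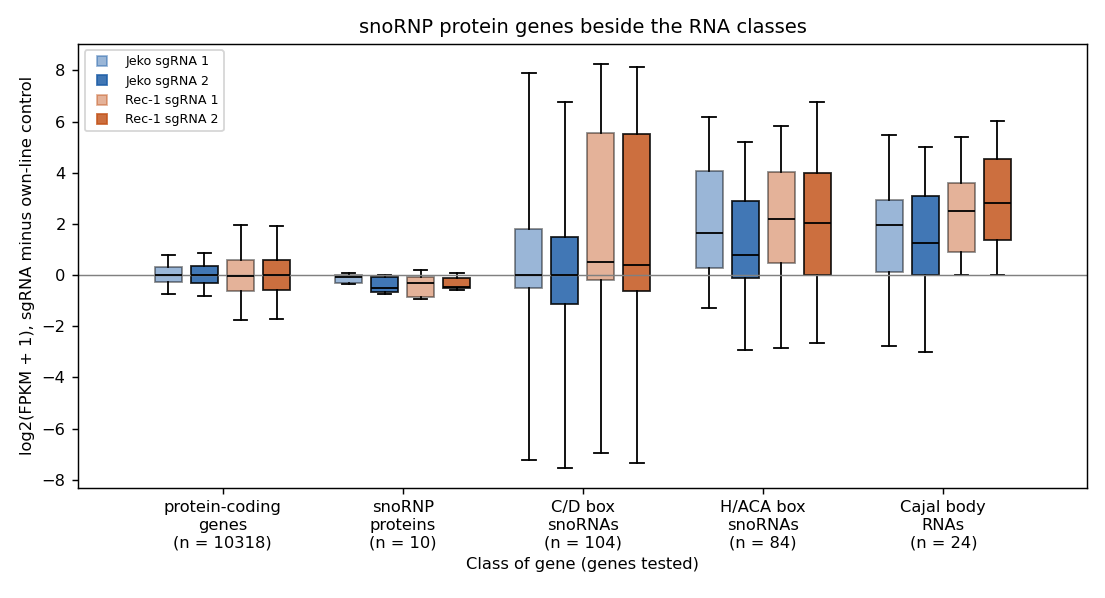
Difference on the log2(FPKM + 1) scale between each sgRNA library and its own control for protein-coding genes, the 10 snoRNP protein genes and the tested C/D, H/ACA and Cajal body RNAs. Boxes show the middle 50% with the median, whiskers the range from the percentile 5 to 95, pale for sgRNA 1 and full for sgRNA 2. Medians of the H/ACA and Cajal body RNAs lie between 0.80 and 2.83 in the 4 libraries and those of the protein genes between -0.52 and -0.054.

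The number of fragments behind the snoRNA values was not analysed here directly, but low values show part of it. The commonest ratio among genes below 0.05 FPKM put Jeko sgRNA 1 at 0.872, Jeko sgRNA 2 at 1.10, the Rec-1 control at 1.10 and Rec-1 sgRNA 2 at 0.687 of the depth of the Jeko control. Rec-1 sgRNA 1 gave no such ratio. In the 5 libraries with a depth, 50 of the 72 H/ACA snoRNAs above 0 in at least 3 of them were whole multiples, within 0.01%, of 1 unit of at most 50 per library, and their highest multiple had a median of 8. For C/D snoRNAs it was 38 of 56 with a median of 7.5, and for Cajal body RNAs 7 of 18 with a median of 6. If the unit is 1 fragment, these RNAs rest on few fragments. None of the 10 protein genes had such small multiples.

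Some snoRNAs lie within introns of the members themselves, which puts a guide RNA and a snoRNP protein in 1 primary transcript. The classes need not match, since SNORA51, an H/ACA RNA, lies in the gene of the C/D protein NOP56. The annotation (GENCODE lifted to GRCh37) places SNORD110, SNORA51 and SNORD86 in introns of NOP56, SNORD70, SNORD11B and SNORD11 in introns of NOP58, and SNORA36A and SNORA56 in introns of DKC1. RefSeq adds SNORD56 and SNORD57 to NOP56. The 3 sequences below were read from GRCh37 and are shown because they are the guide RNAs encoded inside the scaffold proteins' own genes, all on the plus strand. SNORD110 is at chr20:2634858-2634932, with box C (TGATGA) and box D (CTGA) in capitals. SNORA51 is at chr20:2635713-2635844, with matches of the H box (ANANNA) near its middle and the ACA box near its end in capitals. SNORD70 is at chr2:203141154-203141241, with box D in capitals.
SNORD110: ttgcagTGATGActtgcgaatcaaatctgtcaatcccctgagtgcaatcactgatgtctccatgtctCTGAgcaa
SNORA51: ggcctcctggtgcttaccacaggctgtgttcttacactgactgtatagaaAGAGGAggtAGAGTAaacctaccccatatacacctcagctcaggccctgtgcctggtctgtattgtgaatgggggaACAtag
SNORD70: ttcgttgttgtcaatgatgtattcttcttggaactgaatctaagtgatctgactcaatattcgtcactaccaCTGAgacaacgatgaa

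SNORD110 has both boxes in their usual places, box C near the 5′ end and box D near the 3′ end. Searched on the RNA strand only, TGATGA lay in the first 15 nt of 58.7% and CTGA in the last 20 nt of 80.3% of 390 annotated C/D transcripts. SNORD70 has the second motif but no exact match of the first in that window. The table's SNORD70 row has no coordinates, and the annotation gives that name to a second place in NOP58, so the row may stand for either.

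SNORD110, SNORD56, SNORD70 and SNORA51 were higher in both Rec-1 sgRNA libraries than in the Rec-1 control, while their host genes were lower. SNORD57 and SNORD11B were lower in both, as their host genes were. NOP56 in Rec-1 was at 52.2% and 65.9% of its control, while SNORD110 was listed at 0 in the Rec-1 control and at 988 and 699 FPKM in Rec-1 sgRNA 1 and 2 (adjusted p = 0.00610 by limma). In Jeko SNORD110 had 384, 551 and 174 FPKM, so the guides lay on both sides of the control. In units as above these were 4, 5 and 2 in Jeko, 0 in the Rec-1 control and 5 in Rec-1 sgRNA 2. The interaction for SNORD110 had an adjusted p of 0.0207, and 0.129 without Rec-1 sgRNA 1. Within Rec-1 the adjusted p was 0.0700 without Rec-1 sgRNA 1 and 0.0633 without Rec-1 sgRNA 2.

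SNORD56, also in NOP56, was listed at 0 in the 3 Jeko libraries and the Rec-1 control and had 743 and 593 FPKM in Rec-1 sgRNA 1 and 2 (adjusted p = 0.00126 in Rec-1 by limma). SNORD70, in NOP58, was listed at 0 in the same 4 libraries and had 51.8 and 58.2 FPKM in the other 2 (adjusted p = 0.00171). Both RNAs thus reached the mean needed for testing only through those 2 libraries, so these p-values are no independent support. Their host genes had their lowest levels in the same 2 libraries, as 29.1 percent of all genes tested did. SNORA51 had 0, 15.2 and 12.1 FPKM in Jeko and 6.04, 7.76 and 19.4 FPKM in Rec-1, or at most 2 units in the 5 libraries with a depth, and did not pass over both lines (adjusted p = 0.196). SNORD57 had 248, 711 and 225 FPKM in Jeko and 338, 176 and 180 FPKM in Rec-1. These were 1 to 5 units in those 5 libraries. It had no common direction over both lines (adjusted p = 0.911 by limma). In Rec-1 it fell with its host, to 52.2% and 53.4% of the control, beside 52.2% and 65.9% for NOP56. SNORD11B was above 0 only in the Rec-1 control, at 11.95 FPKM. SNORD86, SNORD11, SNORA36A and SNORA56 were listed at 0 throughout.

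The other genes of the pathway were read from lists. Of 11 further assembly factors, such as the RUVBL and HSP90 chaperones of the core proteins, 0 passed over both lines by limma (2 at an unadjusted p under 0.05) and the median was -0.33. PIH1D1, of the R2TP complex, had the lowest p there, with 71.5, 40.4 and 42.7 FPKM in Jeko and 71.2, 43.4 and 46.9 FPKM in Rec-1. Its 4 sgRNA libraries lay well below both controls, with a difference of -0.71 (SE 0.17, adjusted p = 0.175). In Jeko the median was -0.056 and 0 passed (1 at an unadjusted p under 0.05). In Rec-1, 1 of the 11 passed, a share below the 19.2 percent of all genes called there. C12orf45, an assembly factor of C/D particles, fell by 1.29 on the log2 scale (SE 0.26, adjusted p = 0.0448), from 58.3 FPKM to 20.3 and 26.8 FPKM, and 8 of 13 alternatives left it above the threshold.

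For 15 genes of snoRNA processing and trafficking, 0 passed over both lines by limma (0 at an unadjusted p under 0.05) and the median was 0.014. The lowest p was that of DBR1, the enzyme that opens intron lariats, at -0.43 (SE 0.21, adjusted p = 0.270). In Jeko the median was 0.18 and 0 passed (0 at an unadjusted p under 0.05). Between the sgRNA libraries of the lines 3 of the 15 were lower in Rec-1, where 25.9 percent of all genes were called in either direction, so the count is no result about the list. NOLC1, a snoRNP chaperone, had 115, 162 and 138 FPKM in Jeko and 96.9, 68.3 and 84.1 FPKM in Rec-1 (-0.97, SE 0.21, adjusted p = 0.0411). TCOF1, its relative in the nucleolus, had 37.4, 41.6 and 30.8 FPKM in Jeko and 30.8, 9.42 and 15.6 FPKM in Rec-1 (-1.48, SE 0.32, adjusted p = 0.0414). DBR1 differed by -0.83 (SE 0.19, adjusted p = 0.0476). Each of these calls was lost in 6 to 9 of 14 alternatives.

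The small-subunit processome, which holds the U3 C/D particle on the ribosomal precursor, had 0 of 24 genes passing over both lines (4 at an unadjusted p under 0.05), with a median of -0.17. EMG1, a methyltransferase of 18S RNA, had the lowest p there (-1.47, SE 0.34, adjusted p = 0.169). In Jeko the median was 0.11 and 0 passed (1 at an unadjusted p under 0.05). In Rec-1, 2 of 24 passed, a share below the 19.2 percent of all genes, and the median was -0.51. RCL1 fell by 2.06 (SE 0.24, adjusted p = 0.0136), from 65.0 FPKM to 13.8 and 16.0 FPKM, and EMG1 fell by 2.13 (SE 0.25, adjusted p = 0.0139), from 109 FPKM to 24.2 and 24.1 FPKM. In Jeko RCL1 had 74.9, 57.2 and 67.4 FPKM and EMG1 98.5, 62.8 and 49.1 FPKM, and neither passed. Without either Rec-1 sgRNA library the Rec-1 calls were lost, with adjusted p-values of up to 0.0834 for RCL1 and 0.0912 for EMG1, and that of RCL1 was also lost without either Jeko sgRNA library (0.0519 and 0.0520). Between the sgRNA libraries of the lines 4 of 24 were lower in Rec-1, a share below the 25.9 percent of all genes called in either direction. They were RCL1 (-1.99, adjusted p = 0.00706), EMG1 (-1.17, adjusted p = 0.0268), NOP14 (-0.99, adjusted p = 0.0281) and, named after its values were seen, DHX37 (-1.35, adjusted p = 0.0440). Leaving out any 1 of the 4 sgRNA libraries ended each of these 4 calls, with adjusted p-values of up to 0.186.

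Of 16 genes of RNA polymerase I and the nucleolus, 0 passed over both lines by limma (2 at an unadjusted p under 0.05), the median was -0.31, and TAF1C had the lowest p (-0.67, SE 0.20, adjusted p = 0.196). In Jeko the median was -0.091 and 0 passed (0 at an unadjusted p under 0.05). The 1 gene of the 16 called between the lines' sgRNA libraries was NOP2, a methyltransferase of 28S RNA, which was lower in Rec-1 than in Jeko among the sgRNA libraries (-1.35, SE 0.29, adjusted p = 0.0414). Of 4 partners of NHP2L1 on the U4 RNA, 0 passed over both lines (2 at an unadjusted p under 0.05) and 0 in Jeko (0 at that p, median -0.43), and PRPF31 fell in Rec-1 by 1.14 (SE 0.23, adjusted p = 0.0446), from 50.6 FPKM to 22.1 and 22.6 FPKM. PRPF31 had 55.2, 40.8 and 33.3 FPKM in Jeko. The NOP2 call was lost in 7 of 14 alternatives and that of PRPF31 in 8 of 13, among them the fits without any 1 of the 4 sgRNA libraries, with adjusted p-values of up to 0.190 and 0.153.

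TERC, the telomerase RNA, carries an H/ACA domain and is bound by DKC1, NHP2, NOP10, GAR1 and WRAP53. It had 0.157, 0.359 and 0.426 FPKM in Jeko and 1.14, 2.84 and 2.73 FPKM in Rec-1, below every member in each library. Each sgRNA library was above its own control. TERC rose in Rec-1 by 0.82 (SE 0.16, adjusted p = 0.0375), a call lost in 8 of 11 alternatives, and not in Jeko (0.27, SE 0.16, adjusted p = 0.545). The interaction of 0.56 (SE 0.22) had an adjusted p of 0.254 by limma. Over both lines TERC did not pass (0.55, SE 0.29, adjusted p = 0.303).

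The mean of the 4 H/ACA core genes, each centred on its own mean in log2, was 0.39, 0.21 and -0.19 in the Jeko control, sgRNA 1 and sgRNA 2, and 0.15, -0.22 and -0.34 in those of Rec-1. For the 4 C/D core genes it was 0.19, 0.12 and -0.097 in the Jeko libraries, and 0.20, -0.27 and -0.14 in those of Rec-1. In the C/D profile the controls were the highest 2 libraries. In the H/ACA profile Jeko sgRNA 1 lay between the Jeko control and the Rec-1 control. In both the other 3 sgRNA libraries were below 0. Among 7579 genes whose mean reached 5 FPKM, the profiles most like that of the H/ACA core over the 6 libraries were those of NDUFB6 (Pearson r = 0.996), ZSCAN32 (0.994) and MRPL16 (0.994). Those most like the C/D core were POLR3K (0.996), TIMM23 (0.996) and NDUFAF1 (0.995). With 6 libraries that share line, control and depth, these values are a description of likeness and no more.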

How the data were processed

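RNA of 6 libraries was measured by RNA-seq. The authors deposited 1 table of FPKM values with a column for each library, per the file headers. TopHat and hg19 are named in the submitters' processing notes. The program that computed FPKM, its annotation and strand setting are not given in the sources used here. FPKM are not counts, absolute depth is unknown, and no counting interval was computed.

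Members and lists were chosen with earlier results of these data known. Genes whose mean reached 1 FPKM (11400) were tested as log2(FPKM + 1), a scale that understates changes of low genes, with limma 3.58.1 in R 4.3.3 and an adjusted p threshold of 0.05. The comparison over both lines has the line as covariate, that between guides has line and control status, and the others use group means. Of each list, up to 3 genes past the threshold, otherwise that of lowest p, could be named. Positions and lengths come from GENCODE v44 lifted to GRCh37, matched for 22942 of 25277 rows, 1465 by an older name. Python 3.11.15, pandas 2.3.3 and numpy 2.4.6 made the tables. The fits were tested on simulated data. Some values are not reported here. Alternatives are given in the closing section.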

Additional observations from a re-analysis of the deposited data

Results flagged for a closer look

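NOP10 and NAF1 stood out because both guides differed from the control in 1 direction in Jeko and in the other direction in Rec-1. For NOP10 the difference between the lines was 0.83 on the log2 scale (higher in Rec-1, lower in Jeko), with an adjusted p of 0.263 by limma, and 0.231 to 0.392 over 12 alternatives. For NAF1 it was -0.41 (lower in Rec-1, higher in Jeko), with an adjusted p of 0.512, and 0.432 to 0.694 over the alternatives. Neither passed, and 20.7 percent of all genes tested showed such a pattern.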

How the results depend on the processing

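The count of members past the threshold was 0 in each of the 6 comparisons under every alternative run, and at most 3 members had an unadjusted p under 0.05 in any of them. Counts over all genes moved more. Over both lines 28 genes passed, 12 with no filter on low values, 0 with protein-coding genes only (2323 at an unadjusted p under 0.05, by limma) and, leaving out each library in turn, 11 to 2180, the highest without the Jeko control. Without the control of 1 line the fit over both lines holds the other line alone, so the highest count is that of Rec-1. With guide number as a replicate block 9 genes and 0 members passed. The labels do not say that a number marks anything shared between the lines. Deviations of same-numbered guides correlated at r = 0.0998 over all genes and 0.207 over protein-coding genes, to which the members belong. In Jeko 50 genes passed and 3 with protein-coding genes only. In Rec-1 2184 passed, 1083 at a mean of at least 5 FPKM and 657 to 2180 leaving out a library, with the low values without either Rec-1 sgRNA library. The interaction had 791 genes, 318 at a mean of at least 5 FPKM and 75 to 454 leaving out a library, lowest without Jeko sgRNA 2. The line difference had 2947, then 1549 and 803 to 2940. Between guides 2 genes passed, and 0 with no filter (455 at an unadjusted p under 0.05), with protein-coding genes only (246), adjusted for transcript length (247) and leaving out any library (88 to 654).

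Directions over both lines changed for 4 members. Centred on library medians, NAF1 came to -0.053 and NHP2L1 to -0.020 over both lines. Leaving out each library gave -0.68 to 0.0094 for DKC1, -0.55 to 0.28 for NOP10, -0.16 to 0.24 for NAF1 and -0.0061 to 0.15 for NHP2L1. Both ends of each range came from leaving out a control, which leaves the difference of the other line alone. They restate the Jeko and Rec-1 differences and do not test a difference over both lines. For DKC1 and NOP10 no other alternative changed the direction. Median centring moved the median of all genes in Jeko by -0.10, the largest shift of a scaling. With 1 control per line and unknown depth, differences within the intervals given were not detectable here.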
